A study of Mus musculus with 189 samples.

Results

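The histone variant H3.3 and the proteins that carry it to chromatin were followed through mouse preimplantation development at the level of their transcripts. The set held 8 assays, chosen by name from a microfluidic quantitative PCR panel: the H3.3 genes H3f3a and H3f3b, and the genes Hira, ASF1A, ASF1B, DAXX, Atrx and DEK, whose products bind histone H3 on its way to DNA. All 8 were among the 156 assays marked as passed in the deposited table, which listed 192 assays in all. Levels are given as 30 minus the Ct (the PCR cycle at which the signal crosses its threshold), minus the same quantity averaged over the control genes Hnrnpr, Ssu72 and Ube2e1. This scale is log2, so a difference of 1 stands for a 2-fold difference in template if the assay doubles its product in each cycle. A Ct of 30 marks an assay with no signal, written here as not detected. Absolute levels of different genes were not compared, because each assay has its own efficiency.

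H3.3 replaces the replication-coupled H3 proteins outside of S phase. In the mouse it is encoded by H3f3a and H3f3b, whose products have the same amino acid sequence. HIRA places H3.3 at active genes and in the paternal genome after fertilization, and ASF1A and ASF1B hand H3-H4 dimers to HIRA and to the replication-coupled chaperone CAF-1. DAXX, together with the chromatin remodeller ATRX, places H3.3 at telomeres and pericentric repeats. DEK is an abundant chromatin protein that also binds H3.3.

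The study profiled 189 samples, and the stage comparisons used 11 MII oocytes, 14 zygotes, and blastomeres or embryos of the 2-cell (21 samples), 3-cell (7), 4-cell (12), 8-cell (27), 16-cell (26) and 32-cell (50) stages. Oocytes and embryos came from superovulated F1 females of C57BL/6 and DBA/2 parents, the embryos after mating to C57BL6 males, and embryos were grown in KSOMaa at low oxygen. All samples were untreated. Samples of 1 embryo were averaged, which left 58 oocytes, zygotes and embryos: 11, 14, 8, 3, 6, 7, 2 and 7 by stage. At the 2-cell stage 11 blastomeres of unnamed embryos were averaged into 1 value, and at the 16- and 32-cell stages 24 samples held more than 1 cell. A further 10 samples were dilutions of RNA from embryonic stem cells (ESC), 6 were whole 16- or 32-cell embryos, and 1 each was an isolated inner cell mass (ICM) and trophectoderm (TE). Dazl and Brdt were detected in all 11 oocytes and 14 zygotes, and ZP3 in 11 oocytes and 13 zygotes. Pou5f1, Sox2, Nanog, Esrrb and Zfp42 were detected in all 10 ESC samples. Of the 76 late samples, Dazl was detected in 9, ZP3 in 44 and Brdt in 53. Among ICM markers, Pou5f1 and Nanog were detected in 76, Esrrb in 73, Pecam1 and Pdgfra in 62 and Sox2 in 48. Among TE markers, Krt8 was detected in 76, Cdx2 in 60, Id2 in 54, Gata3 in 52 and Tspan8 in 42. The mean Ct of the control genes ran from 11.9 to 20.2 across these samples, and its stage mean from 12.9 in MII oocytes and zygotes to 17.5 at the 32-cell stage.

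Because the results turn on the paralog pairs, the 250 bases before the RefSeq starts of H3f3a, H3f3b, Asf1a and Asf1b are shown (GRCm38.p6, 5′ to 3′ on the gene's own strand). Capitals mark CCAAT, or ATTGG where the motif lies on the other strand. The windows are chr1:180813606-180813855 (minus strand) for H3f3a, chr11:116024505-116024754 (minus strand) for H3f3b, chr10:53596711-53596960 (plus strand) for ASF1A and chr8:83955444-83955693 (plus strand) for ASF1B.
H3f3a: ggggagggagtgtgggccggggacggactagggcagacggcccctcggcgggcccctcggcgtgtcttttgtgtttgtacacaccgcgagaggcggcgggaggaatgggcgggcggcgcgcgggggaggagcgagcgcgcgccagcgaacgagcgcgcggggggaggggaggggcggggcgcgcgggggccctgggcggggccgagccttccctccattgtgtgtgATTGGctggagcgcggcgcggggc
H3f3b: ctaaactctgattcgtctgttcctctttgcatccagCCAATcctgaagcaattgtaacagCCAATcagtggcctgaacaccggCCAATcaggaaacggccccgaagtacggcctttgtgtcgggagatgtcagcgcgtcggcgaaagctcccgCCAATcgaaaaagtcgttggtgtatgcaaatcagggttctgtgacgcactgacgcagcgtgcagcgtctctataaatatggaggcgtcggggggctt
ASF1A: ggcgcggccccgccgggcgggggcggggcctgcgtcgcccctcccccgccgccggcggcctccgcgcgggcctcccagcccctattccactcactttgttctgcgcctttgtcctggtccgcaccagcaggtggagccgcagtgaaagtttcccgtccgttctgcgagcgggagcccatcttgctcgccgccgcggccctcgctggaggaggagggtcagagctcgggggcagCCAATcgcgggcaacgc
ASF1B: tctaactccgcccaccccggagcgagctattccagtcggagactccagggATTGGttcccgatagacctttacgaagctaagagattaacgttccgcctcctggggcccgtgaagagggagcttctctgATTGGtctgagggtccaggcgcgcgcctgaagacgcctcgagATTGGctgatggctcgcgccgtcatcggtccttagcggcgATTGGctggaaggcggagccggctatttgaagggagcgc
H3f3a and ASF1A each held 1 match, and H3f3b and ASF1B each held 4. At least 1 match was found in 33.8% and at least 4 in 0.84% of 32851 RefSeq windows of this length. The H3f3b window also held TATAAA (12.4% of windows on either strand), which was in none of the other members' windows. GGGCGG or its complement CCGCCC (32.7% of windows) occurred 4 times for H3f3a, 0 times for H3f3b, 2 times for ASF1A and 1 time for ASF1B. These letter counts are descriptions and were not tied to the expression values by any test. RefSeq also lists H3f3c and H3f3a pseudogenes, and whether the H3f3a assay reads them was not tested.

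Undetected values were rare among the 8 genes but weighed on some results, so they are given first. H3f3b was not detected in 1 of 11 MII oocytes, although its mean control Ct of 13.0 and its 12 undetected assays of 156 lay within the range of the other oocytes. In the other 10 oocytes H3f3b lay between 2.69 and 4.13. This 1 value widened the error of H3f3b in every comparison of the fit, and H3f3b results that turned on it are therefore given with and without it. H3f3a was not detected in 4 of 26 samples of the 16-cell and 6 of 50 of the 32-cell stage. Hira was not detected in 1 2-cell sample, and DAXX in 1 2-cell and 1 16-cell sample. ASF1A, ASF1B, Atrx and DEK were detected in every sample of the 8 stages. The 2-cell stage held 18 samples with the letter A in their label, whose meaning is not given, and 3 whole embryos without it. Where leaving out the 18 ended a call, this is stated beside it.

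**Figure D1:**
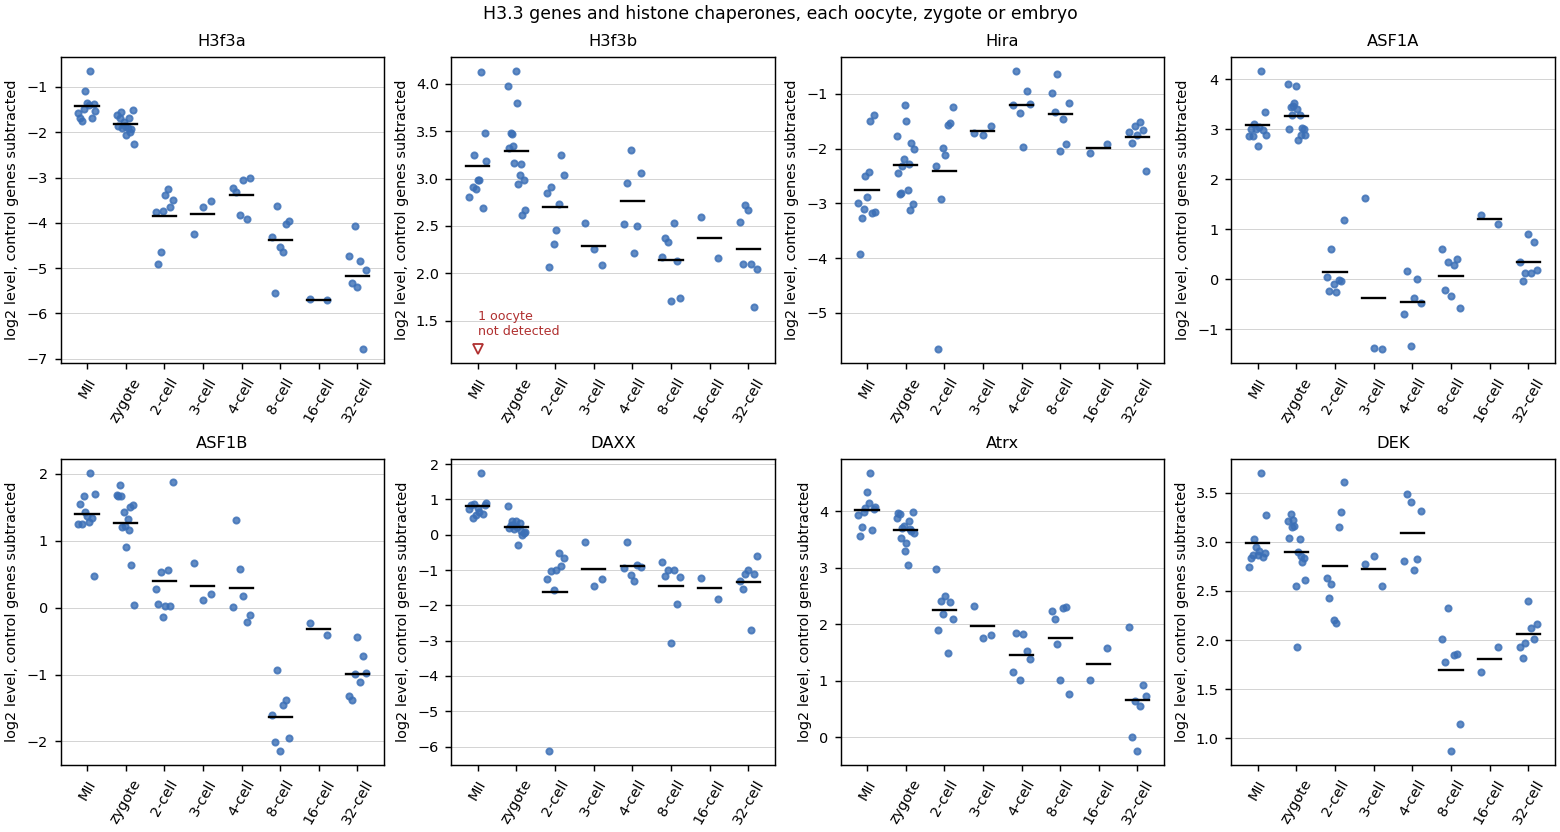
Level of each gene (log2, 30 minus Ct with the control genes subtracted; each panel has its own axis) by stage. Points are single oocytes, zygotes or embryos (means over the samples of an embryo), bars are stage means, and the triangle marks the MII oocyte in which H3f3b was not detected, which is left out of its bar. H3f3a, ASF1A, DAXX and Atrx stepped down without overlap between the zygote and the 2-cell stage, and ASF1B and DEK between the 4-cell and 8-cell stages. ASF1B also fell from zygote to 2-cell and H3f3a from 4-cell to 8-cell, with overlapping values.

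Each step between stages was tested with limma over all 156 assays, and the members are read against the share of all assays called at an adjusted p below 0.05. From MII oocyte to zygote 0 of 8 members were called, and 1.92% of all assays. The unadjusted p was below 0.05 for H3f3a alone of the 8. From zygote to 2-cell embryo 5 of 8 fell and 0 rose, where 68.6% of all assays were called in either direction and 39.1% fell. The step from 2-cell to 3-cell called 0 of 8 members (8.97% of all assays), and that from 3-cell to 4-cell 0 of 8 (3.85%). Neither step gave any member an unadjusted p below 0.05. From the 2-cell to the 4-cell stage directly, Hira rose and Atrx fell (2 of 8, against 32.7% of all assays, 7.05% higher and 25.6% lower). From 4-cell to 8-cell embryo 3 of 8 fell (49.4% of all assays were called and 35.9% fell), and from 8-cell to 16-cell 1 fell and 2 rose (28.2% of all assays, 8.33% lower and 19.9% higher). The step from 16-cell to 32-cell called 0 of 8, against 10.9%, and 0 members had an unadjusted p below 0.05. Across the whole period, from MII oocyte to the 16- and 32-cell stages together, 6 of 8 fell and 1 rose, where 84.6% of all assays were called, 46.8% lower and 37.8% higher. The median change of the 8 genes over the whole period was -2.21, beside -0.35 for all 156 assays.

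H3f3a stepped down at the zygote to 2-cell transition. In the 11 MII oocytes its level ran from -1.76 to -0.65 with a median of -1.48, and in the 14 zygotes from -2.26 to -1.50 with a median of -1.86. In the 8 values of the 2-cell stage it ran from -4.90 to -3.26 with a median of -3.70. All 2-cell values lay below all zygote values. H3f3a fell by 2.03 ± 0.22 (SE) on the log2 scale, a 4.08-fold decrease with an adjusted p of 6.75e-12.

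The level of H3f3a then held near that of the 2-cell stage in the 3-cell embryos (-4.25, -3.66 and -3.53) and in the 6 4-cell embryos (-3.91 to -3.01, median -3.28). It fell again to the 7 8-cell embryos (-5.54 to -3.62, median -4.31), by 0.98 ± 0.27 with an adjusted p of 0.00214, although the stages overlapped. This call ended relative to the median of always detected genes (-0.51, adjusted p = 0.115) and without normalization (-0.66, adjusted p = 0.479). It also ended with every sample and the embryo as a random block (-1.01, adjusted p = 0.339). Whole embryos changed by -0.07 without control genes and by -1.03 relative to them (adjusted p = 0.0108). The median of all 156 assays changed by -0.51 in the main fit of this step. The 16-cell embryos had means of -5.69 and -5.70, and the 7 32-cell embryos ran from -6.79 to -4.07. From 8-cell to 16-cell embryos H3f3a fell by 1.32 ± 0.39 (adjusted p = 0.0113). With undetected values as missing, the change was 0.084 ± 0.34 (adjusted p = 0.862). Whole embryos did not show this decrease. Relative to the control genes H3f3a was at -4.31, -5.54 and -3.62 in the whole 8-cell and at -4.06, -3.50 and -3.76 in the whole 16-cell embryos, a change of 0.72 that did not pass (adjusted p = 0.0965). With the whole late embryos added to the fit, the step was -0.17 (adjusted p = 0.754). Over the whole period H3f3a fell by 3.87 ± 0.22, a 14.6-fold decrease (adjusted p = 1.52e-22).

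The late cells without H3f3a signal were single cells. Among 52 single blastomeres of the 16- and 32-cell stages H3f3a was not detected in 10, from 7 embryos, and among the 24 samples of more than 1 cell it was not detected in 0, which allows a share of up to 12.5%. In the 53 single blastomeres of the 2-cell to 8-cell stages it was not detected in 0, which allows a share of up to 5.66%. Both limits count each sample as separate, although many came from the same embryos, and so describe the samples and not the stages. In the 66 late samples with a signal the H3f3a Ct ran from 17.1 to 25.0 with a median of 20.8, so no late sample fell between 25.0 and the limit of 30. The control genes of the 10 samples without H3f3a had a mean Ct between 15.9 and 18.8, inside the range of 13.6 to 20.2 of the other 66. H3f3b was detected in all 76, with a median level of 1.93 where H3f3a was not detected and 2.45 where it was. Whether these cells held less H3f3a transcript or the assay failed in them cannot be told apart.

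**Figure D2:**
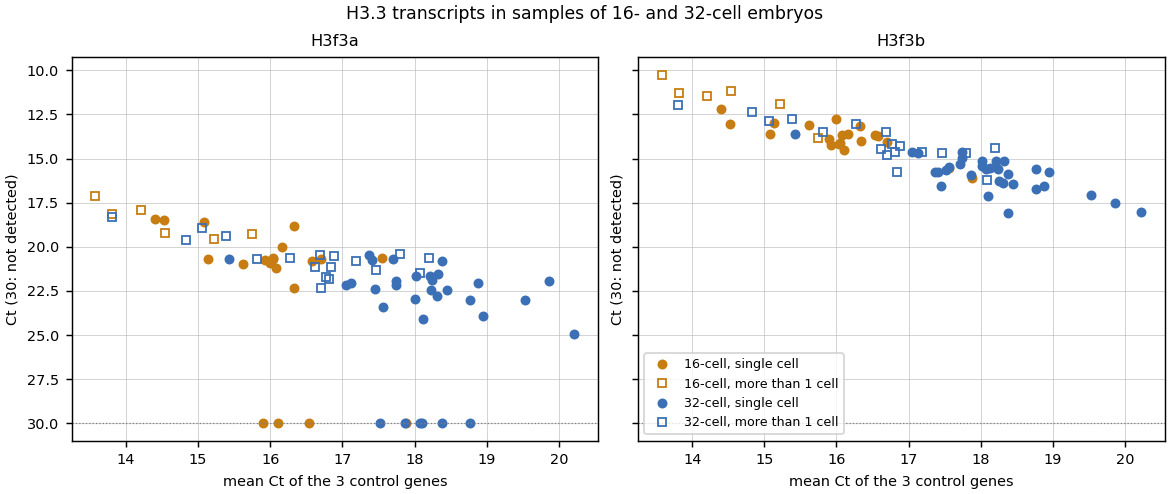
Ct of H3f3a and H3f3b (axis reversed, so that more transcript is higher) against the mean Ct of the 3 control genes in 76 samples of 16- and 32-cell embryos. Filled circles are single cells and open squares samples of more than 1 cell. The 10 samples at a Ct of 30 in the H3f3a panel are single cells whose control Ct values lie among those of the other samples, and H3f3b has a signal in all 76.

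H3f3b changed little by comparison. In the 14 zygotes its level ran from 2.61 to 4.13 with a median of 3.24, in the 2-cell stage from 2.07 to 3.25 with a median of 2.79, and in the 7 8-cell embryos from 1.71 to 2.53 with a median of 2.18. The 3-cell embryos had 2.53, 2.26 and 2.09, the 6 4-cell embryos 2.22 to 3.299, the 16-cell embryos 2.59 and 2.16, and the 7 32-cell embryos 1.65 to 2.72. Neighbouring stages overlapped throughout. From MII oocyte to zygote H3f3b changed by 2.00 ± 1.09 with the undetected oocyte (adjusted p = 0.366) and by 0.16 ± 0.17 with it as missing (adjusted p = 0.765). With the undetected oocyte in the fit, H3f3b passed the test in 0 of the 9 comparisons and had an unadjusted p below 0.05 in 0, and its change from oocyte to the late stages was 0.99 ± 1.22 (adjusted p = 0.446). With that oocyte as missing, H3f3b fell by 0.59 ± 0.18 from zygote to 2-cell (adjusted p = 0.00337), by 0.62 ± 0.23 from 4-cell to 8-cell (adjusted p = 0.0215) and by 0.85 ± 0.19 from oocyte to the late stages (adjusted p = 6.39e-05). The direction over the whole period thus turned with 1 oocyte.

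The difference between the H3.3 paralogs within a sample needs no control gene and was compared between stages by exact permutation, or by 100000 permutations for MII oocytes against zygotes, two-sided and adjusted over 18 comparisons of 2 pairs. Only changes of this difference can be read, since its absolute size also holds the efficiencies of both assays. H3f3a minus H3f3b averaged -5.12 ± 0.45 (SD, n = 14) in zygotes and -6.56 ± 0.58 (SD, n = 8) at the 2-cell stage. The change was -1.44 (permutation test, adjusted p = 9.38e-05), so H3f3a moved down relative to H3f3b. From MII oocyte to zygote the difference changed by -2.41 with the undetected oocyte (permutation test, adjusted p = 0.000585) and by -0.60 in samples with both paralogs detected (permutation test, adjusted p = 0.00306). With a further oocyte that is otherwise left out it was -1.93 (permutation test, adjusted p = 0.409). The other steps from 2-cell to 32-cell passed no test. At the step from 8-cell to 16-cell (7 embryos against 2) the smallest p that the exact test allowed was 0.0278. Where both paralogs were detected, the mean went from -4.52 ± 0.27 (SD, n = 10) in oocytes to -6.73 and -6.45 at the 16- and 32-cell stages. Over all samples these late means were -8.07 and -7.43. The whole 32-cell embryos, with both genes detected, had -7.88, -7.87 and -8.87, below every sampled 32-cell embryo with both detected.

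ASF1A showed the largest fall of the 8 genes at the zygote to 2-cell transition. In MII oocytes its level ran from 2.66 to 4.16 with a median of 2.99, and in zygotes from 2.79 to 3.89 with a median of 3.28. At the 2-cell stage it ran from -0.25 to 1.19 with a median of -0.03, so all 2-cell values lay below all zygote values. It fell by 3.12 ± 0.24, an 8.67-fold decrease with an adjusted p of 1.03e-16.

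The 3-cell embryos did not share an ASF1A level. The first had 1.63 (3 samples), the second -1.37 (3 samples) and the other -1.40 (1 blastomere). The 6 4-cell embryos ran from -1.34 to 0.16, the 7 8-cell embryos from -0.58 to 0.60, the 16-cell embryos had 1.29 and 1.11, and the 7 32-cell embryos ran from -0.04 to 0.90. Both 16-cell values lay above all 8-cell and all 32-cell values.

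ASF1B kept a smaller distance between zygote and 2-cell embryo but stepped down later. Its level ran from 0.47 to 2.02 in MII oocytes, from 0.04 to 1.83 in zygotes (median 1.38) and from -0.14 to 1.88 at the 2-cell stage (median 0.17). It fell by 0.87 ± 0.21 between these stages (adjusted p = 0.000243), although the stages overlapped. Without the 2-cell samples labelled A the change was -0.45 and did not pass (adjusted p = 0.193). It did not pass without Hnrnpr among the control genes either (-0.44, adjusted p = 0.096). The 3-cell embryos had 0.67, 0.11 and 0.21, and the 6 4-cell embryos ran from -0.22 to 1.31 with a median of 0.10. In the 7 8-cell embryos the level ran from -2.14 to -0.94 with a median of -1.61, below all 4-cell values. It fell by 1.93 ± 0.26 from the 4-cell stage, a 3.81-fold decrease (adjusted p = 1.63e-08). The 16-cell embryos had -0.22 and -0.40, above all 8-cell values, and the 7 32-cell embryos ran from -1.38 to -0.44.

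The 16-cell increases of both ASF1 genes depended on the scaling. Relative to Hnrnpr, Ssu72 and Ube2e1, ASF1A rose by 1.13 ± 0.43 (adjusted p = 0.0443) and ASF1B by 1.33 ± 0.38 (adjusted p = 0.00884) from 8-cell to 16-cell, but relative to the control genes of the deposited table the changes were -0.75 (adjusted p = 0.213) and -0.55 (adjusted p = 0.167). The median of all 156 assays changed by 0.32 on the first scale and by -1.55 on the second. A change of control genes shifts all assays alike, so the distance to that median, 0.81 for ASF1A and 1.00 for ASF1B, is the same on every scale by construction. Leaving out 1 of the 2 16-cell embryos ended the calls of ASF1A, ASF1B and H3f3a at this step.

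The difference ASF1A minus ASF1B, in which control genes cancel, went down and came back. It averaged 1.68 ± 0.47 (SD, n = 11) in oocytes and 1.99 ± 0.50 (SD, n = 14) in zygotes, ran from 1.17 to 2.88 in the former and from 1.33 to 2.83 in the latter, and was -0.25 ± 0.28 (SD, n = 8) at the 2-cell stage with a highest value of 0.07. The change of -2.25 had an adjusted p of 5.36e-05 (exact permutation test), and the groups did not overlap. In the 3-cell embryos it was 0.96, -1.48 and -1.61, and the 4-cell embryos averaged -0.75 ± 0.73 (SD, n = 6) with a highest value of 0.22. In 8-cell embryos the difference was back at 1.71 ± 0.31 (SD, n = 7), from 1.28 to 2.20, above every 2-cell and 4-cell value. This change of 2.46 had an exact permutation p of 0.000583, the smallest that this design allows, and an adjusted p of 0.0021. The late stages kept it, with a mean of 1.51 over both 16-cell embryos and 1.33 ± 0.19 (SD, n = 7) at the 32-cell stage. From oocyte to the late stages, sampled as blastomeres, the net change was -0.31 and did not pass (exact permutation test, adjusted p = 0.149). From MII oocyte to whole 32-cell embryo ASF1A changed by -2.05 and ASF1B by -3.13, so the difference rose there. That rise was not tested.

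The reversal was visible in most samples. The difference was above 0 in all 11 oocytes, all 14 zygotes, all 27 samples of the 8-cell and all 26 of the 16-cell stage, and in 46 of 50 of the 32-cell stage. It was above 0 in 6 of 21 samples of the 2-cell, 4 of 7 of the 3-cell and 4 of 12 of the 4-cell stage. Whole embryos gave -0.59, -0.05 and -0.69 at the 2-cell, -0.72, -1.15 and -1.92 at the 4-cell and 2.20, 1.79 and 1.28 at the 8-cell stage. The whole 16-cell embryos, which were not in the permutation tests given here, had 2.19, 2.16 and 2.30, and the whole 32-cell embryos 3.66, 2.67 and 1.97. All of these lay above the means of the 16- and 32-cell embryos sampled as blastomeres.

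**Figure D3:**
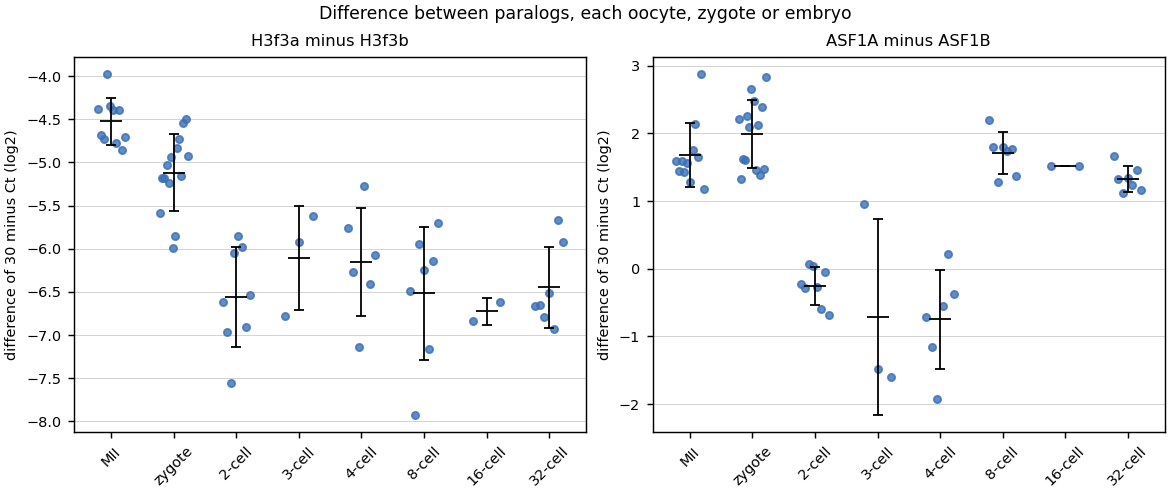
Difference between paralogs (30 minus Ct of the first gene minus that of the second, log2) by stage, over samples with both genes detected. Points are single oocytes, zygotes or embryos, horizontal bars the stage mean and error bars the SD. ASF1A minus ASF1B fell from 1.99 in zygotes to -0.25 at the 2-cell stage and stood at 1.71 in 8-cell embryos, while H3f3a minus H3f3b averaged -5.12 in zygotes, -6.56 at the 2-cell stage and -6.45 at the 32-cell stage. The whole 16- and 32-cell embryos are not plotted.

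Hira, the gene of the H3.3 chaperone for active genes, was the only member that rose over the whole period. Its level ran from -3.93 to -1.38 in MII oocytes (median -2.99), from -3.12 to -1.21 in zygotes (median -2.30) and from -5.66 to -1.24 at the 2-cell stage (median -2.05). The value of -5.66 held a blastomere without signal, and the next lowest was -2.91. In the 3-cell embryos Hira was at -1.71, -1.76 and -1.58, the 6 4-cell embryos ran from -1.97 to -0.58, and the 7 8-cell embryos from -2.04 to -0.64. The rise from 2-cell to 4-cell was 1.21 ± 0.40 (adjusted p = 0.0179), and 0.86 ± 0.30 with undetected values as missing (adjusted p = 0.0235). Relative to the control genes of the deposited table it was 0.90 and did not pass (adjusted p = 0.116). Without the 2-cell samples labelled A it was 0.24 and did not pass (adjusted p = 0.782), and Hira then rose from zygote to 2-cell, by 0.85 ± 0.35 (adjusted p = 0.0286). The 16-cell embryos had -2.08 and -1.92, and the 7 32-cell embryos ran from -2.42 to -1.51. From oocyte to the late stages the rise was 0.92 ± 0.33 (adjusted p = 0.00957). It did not pass without Ube2e1 among the control genes (0.61, adjusted p = 0.078) or with the left-out samples included (0.69, adjusted p = 0.0561). Relative to the control genes of the deposited table that change was -2.64, where the median assay changed by -3.91. The distance of Hira to the median assay, 1.27, is the same on every scale by construction.

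DAXX and Atrx, whose products act together, both stepped down between zygote and 2-cell embryo. DAXX ran from 0.49 to 1.76 in oocytes (median 0.76), from -0.30 to 0.82 in zygotes (median 0.21) and from -6.12 to -0.51 at the 2-cell stage (median -1.02). All 2-cell values lay below all zygote values. It fell by 1.84 ± 0.36 (adjusted p = 1.3e-05), and dropped by 1.36 ± 0.22 with undetected values as missing. Afterwards DAXX passed no test in any step. The 3-cell embryos had -0.20, -1.45 and -1.26, the 4-cell embryos ran from -1.31 to -0.21, the 8-cell embryos from -3.06 to -0.78, and the 32-cell embryos from -2.69 to -0.60. The 16-cell embryos had -1.22 and -1.81.

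Atrx ran from 3.56 to 4.69 in oocytes (median 4.04), from 3.05 to 3.99 in zygotes (median 3.70) and from 1.49 to 2.98 at the 2-cell stage (median 2.29), below all zygote values. Atrx fell by 1.42 ± 0.20, a 2.68-fold decrease (adjusted p = 1.03e-08). Unlike DAXX, Atrx fell further to the 6 4-cell embryos (1.01 to 1.85, median 1.46), by 0.78 ± 0.24 from the 2-cell stage (adjusted p = 0.0123), with overlap. This call ended without the 2-cell samples labelled A (-0.53, adjusted p = 0.319) and without Ube2e1 among the control genes (-0.59, adjusted p = 0.0716). The 3-cell embryos had 2.33, 1.76 and 1.81, the 8-cell embryos ran from 0.76 to 2.31, the 16-cell embryos had 1.01 and 1.58, and the 32-cell embryos ran from -0.24 to 1.94. Over the whole period Atrx fell by 3.23 ± 0.20, a 9.39-fold decrease (adjusted p = 9.8e-21). The H3f3a fall of 3.87 ± 0.22 includes late cells without H3f3a signal, so the order of these genes was not read.

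DEK stepped down between the 4-cell and 8-cell stages, whereas its change from zygote to 2-cell embryo depended on the scaling. It ran from 2.74 to 3.70 in oocytes (median 2.88), from 1.93 to 3.28 in zygotes (median 2.96) and from 2.17 to 3.60 at the 2-cell stage (median 2.60). The zygote to 2-cell difference was -0.14 ± 0.17 (adjusted p = 0.453). Without Ube2e1 among the control genes it was -0.65 (adjusted p = 0.00107), on the deposited table -0.59 (adjusted p = 0.00741) and without normalization -3.14 (adjusted p = 1.78e-08). The median of all 156 assays changed by -0.84, -0.78 and -3.33 under these settings. DEK thus fell less than the median assay, by a distance of 0.19 that is the same on every scale by construction. In the 3-cell embryos DEK was at 2.77, 2.86 and 2.55, and the 4-cell embryos ran from 2.72 to 3.48 with a median of 3.07. The 7 8-cell embryos ran from 0.87 to 2.33 with a median of 1.85, below all 4-cell values. DEK fell by 1.40 ± 0.21 in this step, a 2.63-fold decrease (adjusted p = 1.65e-07). Without normalization this step was -1.07 and did not pass (adjusted p = 0.187). In whole embryos without control genes DEK changed by -0.23 and was not called, while the mean of the control genes went from 15.9 to 16.8. Relative to the control genes the whole embryos changed by -1.19 (adjusted p = 0.000218). The median of all 156 assays changed by -0.51 in the main fit of this step. The 16-cell embryos had 1.68 and 1.93, and the 32-cell embryos ran from 1.82 to 2.40. DEK and ASF1B were thus the members whose 4-cell and 8-cell values did not overlap.

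A list of 10 further genes of histone acetylation and heterochromatin gave a background from related pathways: Hat1, Hells, Cbx1, Cbx3, Cbx5, Trim28, Setdb1, Suv39h1, Suv39h2 and Ehmt2. From zygote to 2-cell embryo 4 of 10 rose and 5 fell, with a median change of -0.51, beside 0 of 8 risen and 5 fallen among the H3.3 genes and chaperones. Hat1, which acetylates new histone H4, fell by 1.92 ± 0.21 (adjusted p = 1.69e-11), from a zygote median of 1.37 to a 2-cell median of -0.30. Suv39h2 fell by 2.77 ± 0.39, Cbx1 by 2.57 ± 0.15, Setdb1 by 1.09 ± 0.25 and Cbx5 by 0.79 ± 0.16. Trim28 rose by 0.62 ± 0.17 (adjusted p = 0.00123). Cbx3, which encodes an HP1 protein, had a zygote median of -6.57 and a 2-cell median of 2.02. Suv39h1 was not detected in 9 of 14 zygotes and in 1 of 21 2-cell samples, and Ehmt2 in 4 of 14 and 1 of 21, and both rose (adjusted p = 3.18e-09 and 2.45e-06). Hells changed by -0.24 ± 0.23 (adjusted p = 0.356).

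Whole oocytes, zygotes and embryos were also compared on the raw scale of 30 minus Ct, without control genes, which follows the transcript in the whole sample. Values were not divided by the number of cells, which the labels give by stage, so they describe the whole sample and not the transcript per cell. From zygote to the 3 whole 2-cell embryos 6 of 8 members fell, where 77.6% of all assays were called and 59.6% fell. ASF1A went from a zygote median of 20.1 to 16.3, 16.2 and 15.1 in the 2-cell embryos, and fell by 4.48 ± 0.42 (adjusted p = 1.13e-11). Hira (-0.74, adjusted p = 0.2) and H3f3b were not called. With the undetected oocyte as missing, H3f3b fell by 1.88 ± 0.49 (adjusted p = 0.000895). The third 2-cell embryo was the lowest for all 8 genes and had control genes at 13.9, against 16.2 and 16.3 in the others. Without this embryo the call of DEK ended (-0.49, adjusted p = 0.247). With control genes subtracted ASF1B did not pass (-0.45, adjusted p = 0.203). DEK and Hira then rose, by 0.45 (adjusted p = 0.0436) and 0.85 (adjusted p = 0.0396). H3f3a, ASF1A, DAXX and Atrx fell under every setting.

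From the 2-cell to the 4-cell stage 0 of 8 members changed (0.641% of all assays were called), and 0 had an unadjusted p below 0.05. From 4-cell to 8-cell ASF1A and Atrx rose (2 of 8, against 25.6% of all assays, 14.1% higher). ASF1A had 15.4, 15.6 and 14.7 in the 4-cell and 17.58, 17.25 and 16.41 in the 8-cell embryos, a rise of 1.83 ± 0.53 (adjusted p = 0.00799). Atrx had 17.23, 17.34 and 17.10, then 19.22, 19.56 and 17.71, a rise of 1.61 ± 0.52 (adjusted p = 0.0191). The 8-cell values of both genes lay above all their 4-cell values. Both calls ended without the third 4-cell or the first 8-cell embryo, that of Atrx also without the second 8-cell embryo (1.24, adjusted p = 0.146), and both ended with the left-out oocyte in the fit. The mean of the control genes rose as well, from 15.9 to 16.8. With control genes subtracted ASF1A rose by 0.87 and did not pass (adjusted p = 0.0559), whereas Atrx rose by 0.65 and stayed called. ASF1B had 16.1, 16.8 and 16.7, then 15.4, 15.5 and 15.1, a change of -1.20 ± 0.54 that did not pass (adjusted p = 0.105), although the values did not overlap.

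The 3 whole 16-cell embryos stood above the 8-cell embryos in most assays. From 8-cell to 16-cell 7 of 8 members rose, where 80.1% of all assays were called (79.5% rose), and the mean of the control genes was higher too (16.8 and 19.3). H3f3b was the other, and with the undetected oocyte as missing it rose as well, by 2.86 ± 0.63 (adjusted p = 0.000121). The largest member change was that of ASF1A, 3.78 ± 0.53, and the smallest among the 7 that of Atrx, 1.62 ± 0.52. With control genes subtracted Atrx fell by 0.80 (adjusted p = 0.0191). From 16-cell to 32-cell 6 of 8 fell (65.4% of all assays were called and 64.1% fell), and the mean of the control genes was 17.4. Between MII oocyte and whole 32-cell embryo 6 of 8 were lower and 1 higher (83.3% of all assays were called, 45.5% lower and 37.8% higher). Atrx fell by 4.12 ± 0.42 (17.4-fold), H3f3a by 3.24 ± 0.42 and ASF1B by 3.13 ± 0.43. H3f3b changed by 2.25 ± 2.18 with the undetected oocyte (adjusted p = 0.335) and by 0.42 ± 0.51 with it as missing (adjusted p = 0.449). Its change of -1.36 from 16-cell to 32-cell passed neither way (adjusted p = 0.664 and 0.0563). Hira rose by 2.24 ± 0.54 (adjusted p = 0.000314). Hira had 16.0, 16.7 and 17.0 in the 32-cell embryos against an oocyte median of 14.1.

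**Figure D4:**
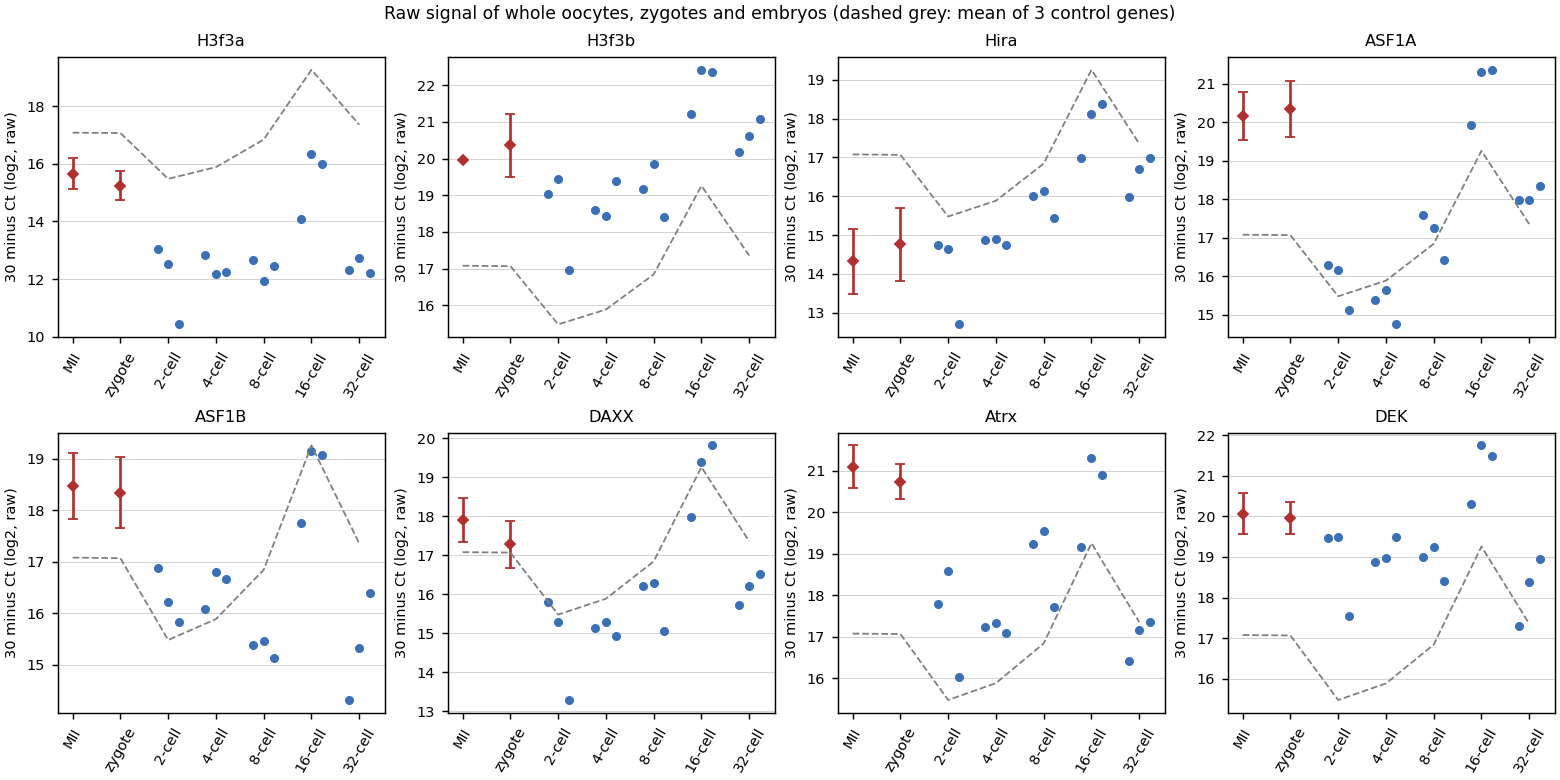
Raw signal (30 minus Ct, log2; each panel has its own axis) of whole oocytes, zygotes and embryos. Red diamonds are means of 11 MII oocytes and 14 zygotes with SD (for H3f3b in MII oocytes the median, without error bar), blue points are the 3 whole embryos of each stage, and the dashed line is the mean of the control genes. The 16-cell embryos stand above the 8-cell and 32-cell embryos for the control genes as well as for most of the 8 genes.

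Among the 8 genes sister blastomeres of the 4-cell and 8-cell stages differed least for DEK and H3f3b. The SD among single blastomeres within an embryo was 0.14 for DEK and 0.16 for H3f3b in 3 4-cell embryos, places 3 and 5 from the lowest among 114 assays detected in every such cell, whose median SD was 0.40. In 4 8-cell embryos it was 0.29 for DEK (place 2 of 109) and 0.37 for H3f3b (place 15), with a median of 0.56. H3f3a had 0.54 and 0.72, ASF1B 0.55 and 0.75, and DAXX 0.46 and 0.83 at these stages. All 3 lay above the median assay. In 2 16-cell embryos DEK (0.38, place 5) and H3f3b (0.47, place 20 of 97) were again the lowest of the 8 genes. At the 32-cell stage DEK was at place 31 and H3f3b at place 18 of 78 assays, and Atrx (0.50) and ASF1A (0.58) lay below both. These SDs also hold the technical error of single-cell PCR.

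Within the late embryos each gene was set against a lineage score, the mean of 12 ICM genes minus the mean of 8 TE genes, by a slope per embryo (8 embryos with at least 5 samples). Of the 8 genes 1 was called, Atrx, where 30.1% of all assays were called. Atrx had a slope of 0.05 ± 0.01 toward the ICM side (adjusted p = 0.0392), with a positive slope in 7 of 8 embryos. Leaving out any of 6 of the 8 embryos ended this call, with slopes from 0.04 to 0.05. The slopes of the other genes lay between -0.02 for ASF1B and 0.03 for Hira, and none passed. The isolated ICM sample had an Atrx level of 1.12 and the isolated TE sample -0.22, and for DEK these were 1.31 and 0.07. ASF1B had -1.09 and -2.72 in them, and H3f3a -4.69 and -4.71. These are single samples with no replicate.

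RNA from ESC gave each gene at amounts from 25 to 800 pg. Its samples are repeats and dilutions of a standard RNA, so their spread is technical and levels were set beside those of the embryos with no test. H3f3b lay between 2.21 and 2.93 in 9 samples, close to the 1.65 to 2.72 of the 32-cell embryos sampled as blastomeres. The 3 whole 32-cell embryos stood higher, at 3.70, 3.07 and 3.05. In the sample of 800 pg, the largest amount used, H3f3b was not detected. H3f3a lay between -4.15 and -1.62 in 9 samples and was not detected in the 1 of 32 pg. The 4 samples of 200 pg differed by an SD between 0.08 for H3f3b and 0.40 for ASF1B. DAXX (0.10 to 0.89) and DEK (2.67 to 4.26) lay above all 32-cell embryos (-2.69 to -0.60 and 1.82 to 2.40), and so did Atrx (1.98 to 3.39 against -0.24 to 1.94). H3f3a, Hira, ASF1A and ASF1B overlapped with the 32-cell embryos sampled as blastomeres. ASF1A minus ASF1B was above 0 in 9 of 10 ESC samples, with a median of 1.48.

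**Figure D5:**
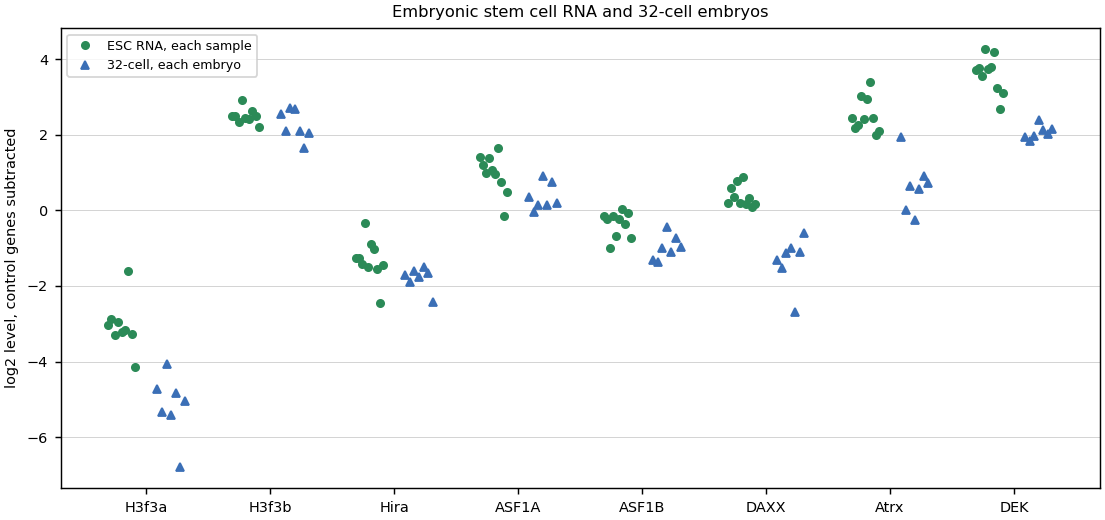
Levels (log2, 30 minus Ct with the control genes subtracted) in ESC RNA samples in which the gene was detected (circles) and in 32-cell embryos (triangles, means over the samples of an embryo). Levels are comparable within a gene and not between genes. DAXX, Atrx and DEK show no overlap between ESC RNA and the 32-cell embryos.

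Across the 58 oocytes, zygotes and embryos, the assays most like each member were found by Pearson's r, a description over values that share stages and control genes. Dicer1 and Pcgf1 followed H3f3a (0.91 each), Eed and Cxxc1 followed ASF1A (0.92 and 0.87), and Dicer1 and Sfmbt1 followed ASF1B (0.91 and 0.90). Kdm6a and Dppa3 were nearest to Atrx (0.91 each), Clock and Ezh1 to DEK (0.82 each), Cxxc1 and Kdm2b to DAXX (0.81 and 0.76), and Klf2 and Kdm3b to Hira (0.69 and 0.65). For H3f3b the nearest assays were Ctcf and Krt19 at 0.27 and 0.13 over all 58, and Kdm6a and Dppa1 at 0.76 and 0.75 over the 57 without the undetected oocyte. Among the members themselves H3f3a and Atrx were most alike (0.87).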

How the data were processed

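Transcripts were measured by BioMark quantitative PCR after 18 cycles of target preamplification in single oocytes, zygotes, blastomeres, whole embryos and ESC RNA. The non-normalized table deposited by the authors holds cycle thresholds (Ct), treated here as a score on which lower values mean more template and 30 stands for no signal. The normalized table deposited by the authors holds log2 values, which equalled 30 minus Ct relative to Gapdh, Hspa8 and Lmnb1 to within 1.03e-08 for every value, and it served as an alternative. Its pass mark kept 156 of 192 assays. The table gives 1 measurement per gene and sample, and the number of molecules behind it is not known, so the number of oocytes and embryos limits the precision.

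Here 30 minus Ct was taken relative to Hnrnpr, Ssu72 and Ube2e1, the control genes of the study's methods, and 1 MII oocyte and 2 32-cell blastomeres that are not in the study's own table of normalized values were left out. Samples of 1 embryo were averaged, and stages were compared with limma 3.58.1 in R 4.3.3 (lmFit and eBayes, two-sided, Benjamini-Hochberg over 156 assays, called below 0.05), which was tested on simulated data. Differences between paralogs were compared by exact permutation or 100000 permutations (Python 3.11.15, scipy 1.17.1). Lineage slopes were weighted by the score's sum of squares within the embryo, and the study chose the lineage genes on these samples. The 8 members, the list of 10 related genes and the 2 most similar assays per member are the genes named. Members and lists were chosen with earlier results of these data known. Settings that treat undetected values as missing or leave out 2-cell samples labelled A were chosen after seeing the data. Replicate numbers were checked and did not pair samples. Promoter letters came from RefSeq (GRCm38.p6), matched by symbol for all 8 genes.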

Additional observations from a re-analysis of the deposited data

Results flagged for a closer look

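Of 48 groups of 4 to 10 values for the 8 genes, 5 held a value far from the rest, where chance alone gives about 1 in 20. In ESC RNA H3f3a stood at -10.46 in the sample of 32 pg, where it was not detected (other samples -4.15 to -1.62), and H3f3b at -15.68 in the sample of 800 pg, where it was not detected either (other samples 2.21 to 2.93). Among the 8 values of the 2-cell stage, the embryo labelled A.e1 stood at -5.66 for Hira (others -2.91 to -1.24) and at -6.12 for DAXX (others -1.57 to -0.51), each through 1 undetected sample. The whole 2-cell embryo e3 stood at 1.88 for ASF1B (others -0.14 to 0.57).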

How the results depend on the processing

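Control genes, undetected values and few embryos set most limits, and transcripts near the detection limit have no usable fold. The number of members called was the same to within 1.5 times under most settings, with these exceptions. Without normalization it was 8 from zygote to 2-cell (5 as reported), 4 from 2-cell to 4-cell (2), 1 from 4-cell to 8-cell (3), 1 from 8-cell to 16-cell (3) and 3 from 16-cell to 32-cell (0). On the deposited normalized table it was 5 from 8-cell to 16-cell and 3 from 16-cell to 32-cell. It was also 3 at that last step with every sample and the embryo as a random block and with whole embryos added, and 2 with the median of always detected genes. Without the 2-cell samples labelled A it was 1 from MII to zygote (0) and 0 from 2-cell to 4-cell. Without Ssu72 it was 2 from 2-cell to 3-cell (0), without Ube2e1 it was 1 from 2-cell to 4-cell, and with the 3 left-out samples it was 1 from 8-cell to 16-cell. On the raw scale of whole embryos, subtracting control genes gave 4 from 4-cell to 8-cell (2) and 3 from 8-cell to 16-cell (7), and including the left-out oocyte gave 0 from 4-cell to 8-cell. The lineage slope called 0 members (1) with equal weights, in single cells, without normalization, without Hnrnpr, without Ube2e1, with the median of always detected genes and in 32-cell embryos only. Leaving out single embryos gave 0 to 1 calls from 2-cell to 3-cell, 2 to 3 from 2-cell to 4-cell, 0 to 3 from 8-cell to 16-cell, 0 to 2 from 4-cell to 8-cell for whole embryos and 0 to 1 for the lineage slope. H3f3a minus H3f3b from MII to zygote changed by -1.93 with the left-out samples and no longer passed.

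Some called values changed sign. Without normalization Atrx from 2-cell to 4-cell was 0.50, ASF1A and ASF1B from 8-cell to 16-cell were -0.23 and -0.036, and H3f3b and Hira from MII to the late stages were -3.31 and -3.38. On the deposited table ASF1A, ASF1B and DEK from 8-cell to 16-cell were -0.75, -0.55 and -1.76, and H3f3b and Hira from MII to the late stages -2.57 and -2.64. On the deposited table the median of all assays changed by -1.55 from 8-cell to 16-cell and by -3.91 from MII to the late stages. Without normalization these medians were -1.04 and -4.65. With undetected values as missing H3f3a from 8-cell to 16-cell was 0.084 and H3f3b over the whole period -0.85, the latter also with 1 oocyte as missing (-0.85). Hira from zygote to 2-cell was 0.85 without the samples labelled A. For whole embryos with control genes subtracted, Hira and DEK from zygote to 2-cell were 0.85 and 0.45, and Hira, Atrx and DEK from 8-cell to 16-cell were -0.45, -0.80 and -0.12. In 133 further cases the sign changed with neither value called. The cause was not tested.

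With the replicate number as a replicate block, 0 members were called from MII to zygote, as without it, and H3f3a changed by -0.38. For whole embryos the replicate block called 6 from zygote to 2-cell and 7 from MII to 32-cell. Same-numbered oocytes and zygotes correlated from -0.26 to 0.25, and 0 of 11 best with their own number, so the numbers were not taken as pairs.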

Other observations

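Whole 32-cell embryos and 32-cell embryos sampled as blastomeres were in different comparisons, and for some genes their levels relative to the control genes did not overlap. DEK was 0.81, 0.84 and 0.91 in the 3 whole embryos and 1.82 to 2.40 in the 7 sampled embryos. H3f3b was 3.70, 3.07 and 3.05 in the whole and 1.65 to 2.72 in the sampled embryos, and ASF1B was -2.18, -2.22 and -1.64 against -1.38 to -0.44. The difference was not tested and its cause was not tested. H3f3a minus H3f3b was -7.88, -7.87 and -8.87 in the whole 32-cell embryos, with both genes detected, and -6.93 to -5.66 in the sampled embryos.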
